A study of Mus musculus with 11 samples.

Results

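The 10 genes described here encode the machinery that loads and presents peptides on MHC class II molecules, and they were taken by gene symbol from the 22600 genes of the merged count table, which held all 10. They were measured by bulk RNA sequencing of whole distal tibiae, snap-frozen and ground with their marrow, of Control (n = 4) and BMAd-DTA (n = 7) mice, each mouse giving 1 library. All mice were of a C57BL6/SJL background, were 24 weeks old and were fed ad libitum. Both genotypes, per the study's methods, carried Osterix-FLPo and FAC, a Cre inserted behind endogenous Adipoq that FLPo turns into the active orientation. The BMAd-DTA mice also carried ROSA-DTA, in which Cre removes a loxP-flanked stop and turns on the toxic diphtheria toxin A chain, mainly in bone marrow adipocytes (BMAds) and in a small subset of marrow adipogenic lineage precursors. The controls, named BMAd-WT in the genotype label, had the Cre without the toxin, and the low circulating adiponectin that the study describes for mice with this Cre therefore belongs to the background of the controls as well.

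Class II molecules are pairs of an α and a β chain that carry peptides from the endosomal pathway to the cell surface, where CD4 T cells read them. The invariant chain Cd74 holds the groove of a new pair closed, and H2-DM removes the last fragment of that chain and edits the peptide. H2-DO restrains H2-DM, and the transactivator Ciita switches on most of the set. In bone marrow these genes are used by B cells, dendritic cells and macrophages, and H2-DO is best known from B cells.

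Depth was similar in the 2 groups, from 16969529 to 18637663 counts assigned to genes per library. The summed level of 10 adipocyte markers ran from 720.2 to 1444 CPM (counts scaled to a common library total) in Control and from 287.5 to 930.0 in BMAd-DTA libraries, and that of 10 osteoblast and osteocyte markers from 2969 to 13049 in Control and from 15385 to 36233 in BMAd-DTA libraries. Skeletal muscle markers varied from 16.6 to 1313 CPM in Control and from 18.3 to 1018 CPM in BMAd-DTA libraries.

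All 10 genes passed the filter on low counts. No difference between the genotypes passed an adjusted p of 0.05 for any of the 10 genes in edgeR's quasi-likelihood test, in which 13 of 16496 genes tested did so (0.0788%). DESeq2, which called 845 of 15583 genes (5.42%), and limma-voom also called none of the 10, and none had an unadjusted p under 0.05 in any of these 3 tools, against 16.4% of all genes in edgeR. The groups overlapped for every one of the 10, while they did not overlap for 464 genes (2.81%). The fitted log2 fold change of BMAd-DTA over Control was above 0 for 5 of the 10, as for 50.4% of all genes, and its median was -0.0033, beside 0.0018 over all genes. In whole bone, fewer cells of a type and less RNA per cell cannot be told apart, and the values below are levels relative to all counts of the whole tissue.

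**Figure D1:**
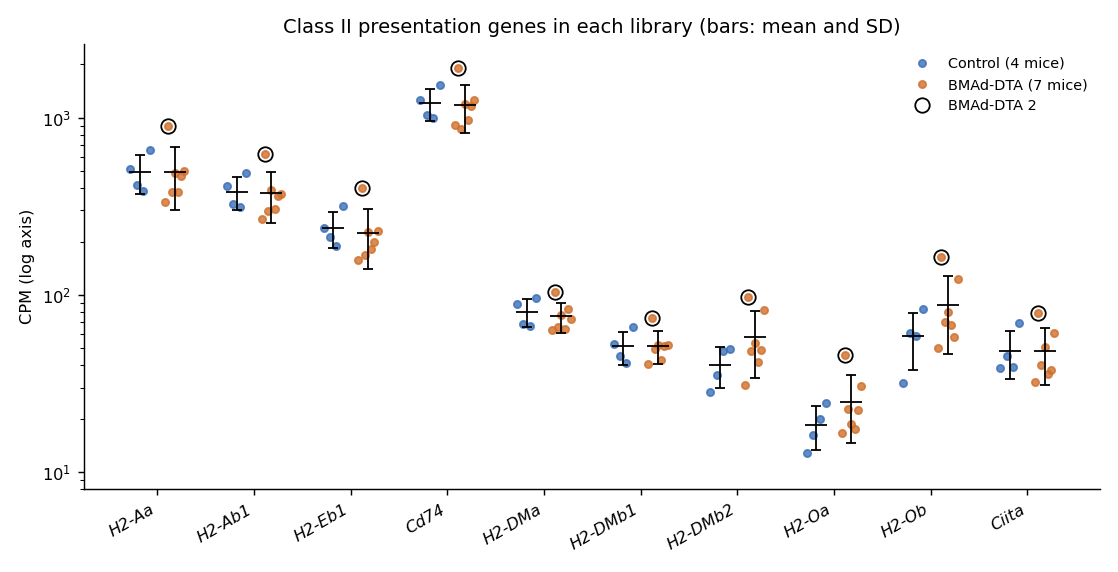
CPM (log axis) of the 10 class II genes in each of 4 Control and 7 BMAd-DTA libraries, with the mean and SD of each group as bars and library BMAd-DTA 2 ringed. The groups overlap for every gene, and BMAd-DTA 2 is the highest library for all 10.

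The classical chains were abundant and had group means within 0.10 of each other on the log2 scale. H2-Aa, the α chain of the I-A molecule (chromosome 17, 34282744 to 34287823, minus strand, GRCm38), had 514.0, 418.2, 385.3 and 660.1 CPM in Control 1 to 4. In BMAd-DTA 1 to 7 it had 332.8, 897.1, 382.3, 489.0, 378.3, 466.1 and 499.3 CPM. The highest and the lowest of the 11 libraries were both BMAd-DTA libraries, and 3 BMAd-DTA libraries lay below every control while 1 lay above. The group means were 494 ± 123 CPM (SD, n = 4) and 492 ± 189 CPM (SD, n = 7), with a log2 fold change of -0.0067 (SE 0.24) and an adjusted p of 0.993 in edgeR. An interval of 2 SE on either side ran from -0.49 to 0.47.

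H2-Ab1, the β chain of I-A (chromosome 17, 34257689 to 34269419, plus strand), had 410.4, 324.0, 311.0 and 484.5 CPM in the controls. Its values in BMAd-DTA 1 to 7 were 269.3, 623.0, 295.9, 388.2, 306.3, 360.5 and 368.8 CPM. The order of the libraries was close to that of H2-Aa, with BMAd-DTA 2 again on top and Control 4 next. The means were 382.5 ± 81.1 and 373 ± 118 CPM, and the log2 fold change was -0.04 (SE 0.20, adjusted p = 0.956 in edgeR). Within each library H2-Aa stood at a nearly fixed multiple of its partner, 1.29 ± 0.055 (SD) in Control and 1.3 ± 0.074 in BMAd-DTA libraries.

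H2-Eb1, the β chain of the I-E molecule (chromosome 17, 34305867 to 34316674, plus strand), had 237.8, 213.4, 187.9 and 316.7 CPM in Control 1 to 4. It had 158.1, 400.6, 168.3, 226.8, 181.5, 198.9 and 229.9 CPM in BMAd-DTA 1 to 7. The control mean of 239 ± 55.7 CPM and the BMAd-DTA mean of 223.5 ± 82.8 CPM differed by a log2 fold change of -0.10 (SE 0.23, adjusted p = 0.880 in edgeR). The α chain that would pair with it is a pseudogene in the reference strain, H2-Ea-ps, and the per-library counts held between 0 and 3 reads of it on the gene's strand. H2-Eb1 transcript was thus measured at a high level beside almost no transcript of its partner.

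Cd74, the invariant chain (chromosome 18, 60803848 to 60812652, plus strand), was the most abundant of the 10. The controls had 1249.5, 1039.8, 999.2 and 1533.8 CPM. BMAd-DTA 1 to 7 had 902.8, 1908.8, 862.2, 1194.2, 970.6, 1161.3 and 1255.6 CPM. The same libraries, Control 4 and BMAd-DTA 2, led their groups as for the chains, and 3 BMAd-DTA libraries were below every control. The log2 fold change was -0.03 (SE 0.20, adjusted p = 0.961 in edgeR), and its interval of 2 SE ran from -0.43 to 0.37. The ratio of H2-Aa to Cd74 was 0.407 ± 0.0187 (SD) in Control and 0.411 ± 0.0343 in BMAd-DTA libraries.

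BMAd-DTA 2 carried much of the spread in this group. Without that library the BMAd-DTA mean of H2-Aa was 425 ± 69.0 CPM (SD, n = 6) in place of 492 ± 189, that of H2-Ab1 331.5 ± 47.3 CPM and that of Cd74 1058 ± 166 CPM. The fitted log2 fold changes then moved to -0.22 for H2-Aa, -0.21 for H2-Ab1, -0.30 for H2-Eb1 and -0.19 for Cd74, and none of the 10 genes was called. BMAd-DTA 2 was also the highest library for 9.69% of all genes tested and had the highest summed mature B cell markers, 4618 CPM.

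The peptide exchange factor H2-DM was measured through its α chain and through 2 β chains encoded next to each other. H2-DMa (chromosome 17, 34119541 to 34139101, plus strand) had the narrowest range of the 10, 1.65-fold from the lowest to the highest library. Its levels were 89.3, 68.9, 66.4 and 95.6 CPM in Control 1 to 4. They were 63.0, 103.7, 65.7, 76.9, 64.6, 83.0 and 72.9 CPM in BMAd-DTA 1 to 7. The means of 80.1 ± 14.6 and 75.7 ± 14.3 CPM gave a log2 fold change of -0.08 (SE 0.14, adjusted p = 0.828 in edgeR). Reads on the opposite strand made up 4.70% of those over this gene, the largest share among the 10.

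H2-DMb1 (chromosome 17, 34153072 to 34160230, plus strand) had 52.6, 45.2, 41.4 and 65.95 CPM in the controls. It had 40.7, 74.0, 49.5, 52.3, 42.9, 51.2 and 52.2 CPM in BMAd-DTA 1 to 7. The libraries lay within 1.82-fold of each other, and the means were 51.3 ± 10.9 and 51.8 ± 10.8 CPM (log2 fold change 0.01, SE 0.16, adjusted p = 0.976 in edgeR).

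H2-DMb2 (chromosome 17, 34143307 to 34151555, plus strand) is the neighbouring β chain gene, and its log2 CPM correlated with that of H2-DMb1 at r of 0.619 over the 11 libraries (rho 0.582 with permutation p 0.0663, permutation p for r 0.0411 and 0.056 after adjustment over 45 pairs), at 0.37 without the 2 libraries farthest from the median and at 0.888 within the 7 BMAd-DTA libraries. Its values were 28.3, 35.3, 48.0 and 49.8 CPM in Control 1 to 4 and 30.9, 97.3, 48.1, 53.4, 42.1, 49.2 and 82.2 CPM in BMAd-DTA 1 to 7. Control 1, which was among the higher libraries for H2-DMa and H2-DMb1, was the lowest of all 11 here, and BMAd-DTA 2, BMAd-DTA 4 and BMAd-DTA 7 were above every control. The means were 40.3 ± 10.3 and 57.6 ± 23.5 CPM, and the log2 fold change of 0.51 (SE 0.28) had an adjusted p of 0.380 in edgeR, with an interval of 2 SE from -0.04 to 1.07. The ratio of H2-DMb2 to H2-DMb1 within a library ran from 0.537 in Control 1 to 1.58 in BMAd-DTA 7.

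The longest coding transcripts of H2-DMb1 and H2-DMb2 in GENCODE M21 were 94.6% identical over 1219 aligned bases, and 179 of the 1305 stretches of 100 bases in the first occurred unchanged in the second (13.7%). Read pairs that fall wholly in such stretches could not be told apart. Whether such pairs were left out or assigned was not checked, and the levels of these 2 genes are uncertain to that extent. No other pair of the 10 shared a stretch of that length.

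H2-Oa and H2-Ob encode the α and β chains of H2-DO, the inhibitor of H2-DM. H2-Oa (chromosome 17, 34092340 to 34095234, plus strand) had 12.9, 16.1, 20.03 and 24.6 CPM in Control 1 to 4. It had 16.7, 45.7, 22.6, 18.7, 17.6, 22.5 and 30.7 CPM in BMAd-DTA 1 to 7. BMAd-DTA 2 and BMAd-DTA 7 lay above every control, the other 5 within the range of the controls, and Control 1 was lowest. The means were 18.4 ± 5.06 and 24.9 ± 10.3 CPM, with a log2 fold change of 0.44 (SE 0.27, adjusted p = 0.453 in edgeR).

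H2-Ob (chromosome 17, 34238903 to 34254414, plus strand) had the widest range, 5.13-fold over the 11 libraries. The controls had 31.96, 60.6, 58.5 and 82.75 CPM. BMAd-DTA 1 to 7 had 50.4, 164.1, 70.4, 79.9, 67.2, 57.8 and 122.5 CPM. BMAd-DTA 2 and 7 were the libraries above all controls, as for H2-Oa, and Control 1 was again lowest. The means were 58.5 ± 20.8 and 87.5 ± 41.1 CPM, and the log2 fold change of 0.58 (SE 0.32) had an adjusted p of 0.398 in edgeR and an interval of 2 SE from -0.07 to 1.23.

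H2-DMb2, H2-Oa and H2-Ob had the largest fitted differences of the 10, and single libraries moved them. Without BMAd-DTA 2 the log2 fold changes were 0.34, 0.22 and 0.35 in that order, and without Control 1 they were 0.38, 0.30 and 0.38. Without Control 4 they were 0.63, 0.61 and 0.80, with adjusted p between 0.300 and 0.353 in edgeR. H2-Eb2, a further β chain gene of the region that was listed with the pathway and not among the 10, had 6.41 ± 2.16 CPM in Control and 9.24 ± 4.01 CPM in BMAd-DTA libraries (log2 fold change 0.53, SE 0.32, adjusted p = 0.446 in edgeR).

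Ciita, the transactivator (chromosome 16, 10480059 to 10528418, plus strand), had the same mean level in both groups, 48.2 ± 14.4 CPM in Control and 48.2 ± 17.02 CPM in BMAd-DTA libraries. Its values were 38.9, 45.3, 39.2 and 69.3 CPM in Control 1 to 4. They were 32.4, 79.4, 40.001, 50.9, 35.7, 37.5 and 61.2 CPM in BMAd-DTA 1 to 7. Control 4 and BMAd-DTA 2 again stood highest in their groups. The log2 fold change was 5.75e-05 (SE 0.24, adjusted p = 0.9999 in edgeR) with an interval of 2 SE from -0.49 to 0.49.

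**Figure D2:**
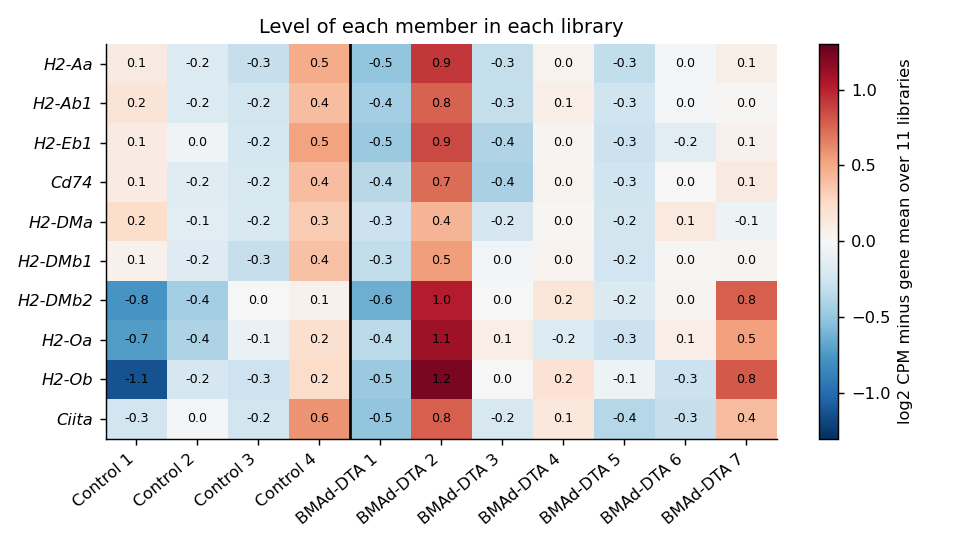
log2 CPM of each of the 10 genes (rows) in each library (columns) minus the mean of that gene over the 11 libraries, with the black line between Control and BMAd-DTA. BMAd-DTA 2 and Control 4 are above the mean in every row, while Control 1 is below it only for H2-DMb2, H2-Oa, H2-Ob and Ciita.

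Per kilobase of exon, the order of levels in Control libraries was Cd74 at 718 ± 146 CPM per kb (SD, n = 4), then H2-Ab1 at 149 ± 31.6, H2-Aa at 130.2 ± 32.4 and H2-Eb1 at 123 ± 28.6. The means of the 3 chains differed by less than their SD between mice. On these exon lengths H2-Ab1 was above both H2-Aa (by 1.03 to 1.2 times) and H2-Eb1 (by 1.15 to 1.37 times) within each of the 11 libraries. The DM genes followed, with H2-DMb1 at 30.5 ± 6.45, H2-DMa at 23.2 ± 4.23 and H2-DMb2 at 23.1 ± 5.91 CPM per kb. H2-DMb1 was above H2-DMa in all 11 libraries and above H2-DMb2 in 8 of them. H2-Oa had 13.1 ± 3.60 and H2-Ob 10.9 ± 3.86 CPM per kb, with H2-Oa higher in 4 of 4 Control and 4 of 7 BMAd-DTA libraries. Ciita was lowest at 5.05 ± 1.51 CPM per kb. In BMAd-DTA libraries H2-DMb2 had 33.0 ± 13.4 and H2-DMb1 30.8 ± 6.44 CPM per kb, and H2-DMb1 was the higher of these 2 in 5 of the 7 libraries. The lengths are of all annotated exons, UTRs included, which lowers the values of genes with long or alternative exons. The exons of H2-Aa sum to 3798 bases and those of H2-Ab1 to 2568, while their longest coding transcripts have 1128 and 1212. On the transcript lengths H2-Aa would be above H2-Ab1. The orders of H2-DMb1 and H2-DMa and of H2-Oa and H2-Ob also depend on the length used.

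Across the 11 libraries H2-Aa, H2-Ab1, H2-Eb1 and Cd74 correlated with each other at Pearson's r of 0.979 to 0.995 and Spearman's rho of 0.964 to 0.982 in 6 pairs, with adjusted permutation p of at most 9e-05, and r stayed between 0.928 and 0.982 without the 2 libraries farthest from the median. With H2-DMa and H2-DMb1 added, r was 0.907 to 0.995 over 15 pairs. Of all 45 pairs, 29 had a permutation p for r under 0.05 after adjustment over the 45, and 25 had one for rho.

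H2-DMb2, H2-Oa and H2-Ob correlated with each other at r of 0.921 to 0.944 (rho 0.800 to 0.891), and at 0.773 to 0.852 without the 2 farthest libraries. Between these 3 genes and the other 6 of the class II region and Cd74, r ran from 0.325 to 0.692 over 18 pairs (rho 0.364 to 0.591), and from -0.327 to 0.427 without the 2 farthest libraries. Within the 7 BMAd-DTA libraries the same 18 pairs had r of 0.699 to 0.912. BMAd-DTA 2, the highest library for all 10 genes, can raise these values, and r without it was not computed. Whether the 2 sets come apart in this group is therefore not settled. The split into these 2 sets was drawn after the values were seen and was not tested. Ciita lay between them, with r of 0.710 to 0.903 to the other 9.

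**Figure D3:**
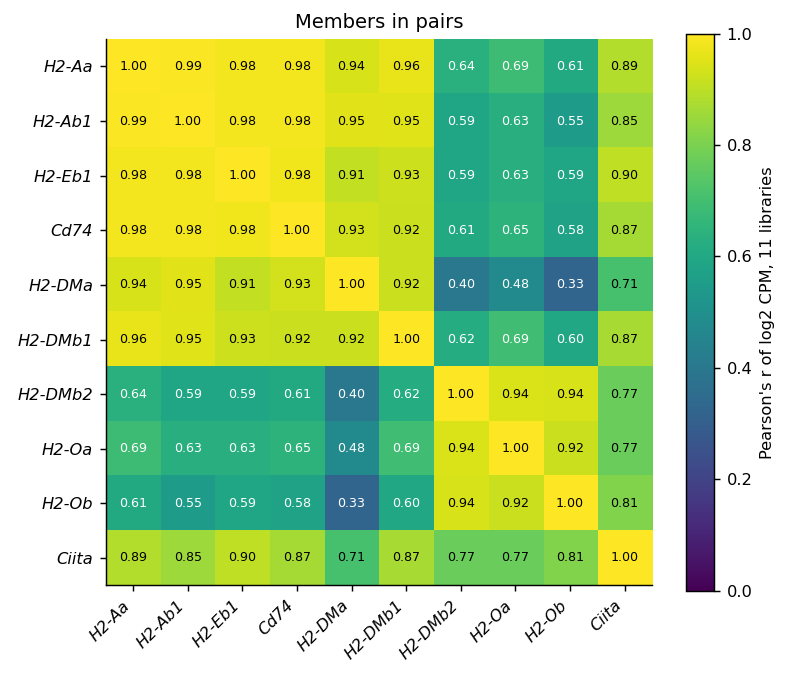
Pearson's r of log2 CPM over the 11 libraries for each pair of the 10 genes, from 0 (dark) to 1 (yellow). The 6 genes from H2-Aa to H2-DMb1 form a block with r of at least 0.907, and H2-DMb2, H2-Oa and H2-Ob form another with r of at least 0.921, with 0.325 to 0.692 between the blocks (0.699 to 0.912 within the 7 BMAd-DTA libraries alone).

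Promoters of these genes are known for an X box, bound by the RFX complex, and a Y box, bound by NF-Y, which together hold CIITA in place. RefSeq windows from 250 bases before to 50 bases after the start (GRCm38.p6) were given for 7 of the 10 genes, with 2 windows for H2-DMa. The Y box core ATTGG, read on both strands, was in 37.4% of 32851 windows of the same length. The pattern AACNNATG, chosen after the windows were read and searched on both strands, was in 8.86%, and AACNNATG followed on the same strand by ATTGG after 10 to 30 bases was in 57 windows (0.174%). That arrangement was present for 4 of the 7 genes, H2-Eb1, H2-DMb1, H2-DMb2 and H2-Ob, and also for H2-Eb2. These stretches are shown because they hold genes of both sets, and capitals mark AACNNATG and ATTGG, with 20 to 23 bases between them:
H2-Eb1, chr17:34305766-34305824, plus strand: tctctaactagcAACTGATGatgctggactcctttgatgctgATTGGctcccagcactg
H2-DMb1, chr17:34153087-34153146, plus strand: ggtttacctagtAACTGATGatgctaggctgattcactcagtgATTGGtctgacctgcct
H2-DMb2, chr17:34145116-34145175, plus strand: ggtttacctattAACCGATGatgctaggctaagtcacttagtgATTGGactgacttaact
H2-Ob, chr17:34238808-34238864, plus strand: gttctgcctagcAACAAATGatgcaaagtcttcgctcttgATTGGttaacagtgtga
H2-Eb2, chr17:34325533-34325591, plus strand: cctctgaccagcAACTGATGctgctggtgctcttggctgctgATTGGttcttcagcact

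The windows of H2-DMb1 and H2-DMb2 were identical at 210 of 258 aligned bases (81.4%), and these 2 genes lay in different sets over the 11 libraries. H2-Aa and H2-Oa had ATTGG 48 and 43 bases before the start without AACNNATG. They are printed for comparison, with capitals marking ATTGG:
H2-Aa, chr17:34287855-34287916, minus strand: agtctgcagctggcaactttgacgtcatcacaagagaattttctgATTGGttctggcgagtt
H2-Oa, chr17:34092291-34092352, plus strand: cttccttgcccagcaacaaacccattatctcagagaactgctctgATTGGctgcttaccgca
A wider X box pattern, found in 3.94% of all windows, was present for H2-DMa, H2-DMb1 and H2-Ob. It was not found for H2-Eb1 and H2-DMb2, which hold AACNNATG. A window without a match to either pattern, as for H2-Aa and H2-Oa, may still hold an X box. The letters describe the windows and say nothing of what was bound there in these bones.

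The genes whose pattern over the 11 libraries was most like the mean of the 10, among 12963 other genes averaging 50 counts or more per library, were Trim5 (r = 0.900), Pkib (0.899), Tespa1 (0.882), Tmem243 (0.873), Lpxn (0.860), Snx5 (0.854), Rubcnl (0.851), Crebrf (0.850), Gm10676 (0.845) and Zfp773 (0.845). These values are a description over 11 libraries. None of these genes passed the test between genotypes, and the lowest adjusted p among them was 0.394 for Rubcnl, which had 15.3 CPM in Control and 19.3 CPM in BMAd-DTA libraries on average.

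Markers of the cells that carry class II were examined beside the 10 genes. The 15 mature B cell markers, which include the antigen receptor subunit Cd79a and the surface proteins Ms4a1 and Fcer2a, had a fitted log2 fold change above 0 for 14, a median of 0.54, and none past an adjusted p of 0.05. Fcer2a, the low-affinity IgE receptor, was at the top with 40.2 ± 20.1 CPM in Control and 65.0 ± 34.2 CPM in BMAd-DTA libraries (log2 fold change 0.69, SE 0.40, adjusted p = 0.412 in edgeR). Ighm, the IgM heavy chain, was at the other end at -0.20 (SE 0.30, adjusted p = 0.795). Markers of plasma cells (7 of 7 above 0, median 0.35), pro-B and pre-B cells (9 of 10, median 0.23) and T cells (9 of 9, median 0.34) also had mostly positive fitted values, with none called in edgeR. Of the T cell markers, 6 of 9 were higher at an unadjusted p under 0.05 in edgeR, beside 7.89% of all genes. The list was not tested as a set. By flow cytometry of long bone marrow, the study counted fewer T cells in BMAd-DTA mice. That is a cell number, while the values here are shares of the RNA of whole bone. Trbc2, a T cell receptor constant region, had 9.74 ± 2.73 CPM in Control and 14.8 ± 3.08 CPM in BMAd-DTA libraries (log2 fold change 0.60, SE 0.19, adjusted p = 0.136 in edgeR and 0.0364 in DESeq2). Its groups did not overlap, as for 2.81% of all genes in either direction. The 11 dendritic cell markers tested had a median of -0.0014 and the 12 macrophage markers one of -0.0045. Single genes of these lists stood apart from their medians. The macrophage marker Cd68 had 216 ± 25.6 CPM in Control and 292 ± 30.3 CPM in BMAd-DTA libraries without overlap (log2 fold change 0.43, SE 0.096, adjusted p = 0.072 in edgeR and 0.00212 in DESeq2). Adgre1 was at the other end of that list at -0.30 (SE 0.115, adjusted p = 0.209 in edgeR and 0.137 in DESeq2). Of the 12 macrophage markers, 6 had a fitted value above 0 and 6 below. Batf3, a factor of cross-presenting dendritic cells, had -1.39 (SE 0.39, adjusted p = 0.1096 in edgeR and 0.016 in DESeq2). Its levels were low, at 4.47 ± 3.55 CPM in Control and 1.70 ± 0.509 CPM in BMAd-DTA libraries. They overlapped, from 1.83 to 9.70 CPM in Control and from 0.906 to 2.30 CPM in BMAd-DTA libraries. Ccr7, a homing receptor of migrating dendritic cells and also of lymphocytes, had 0.78 (SE 0.25, adjusted p = 0.148 in edgeR and 0.0323 in DESeq2).

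**Figure D4:**
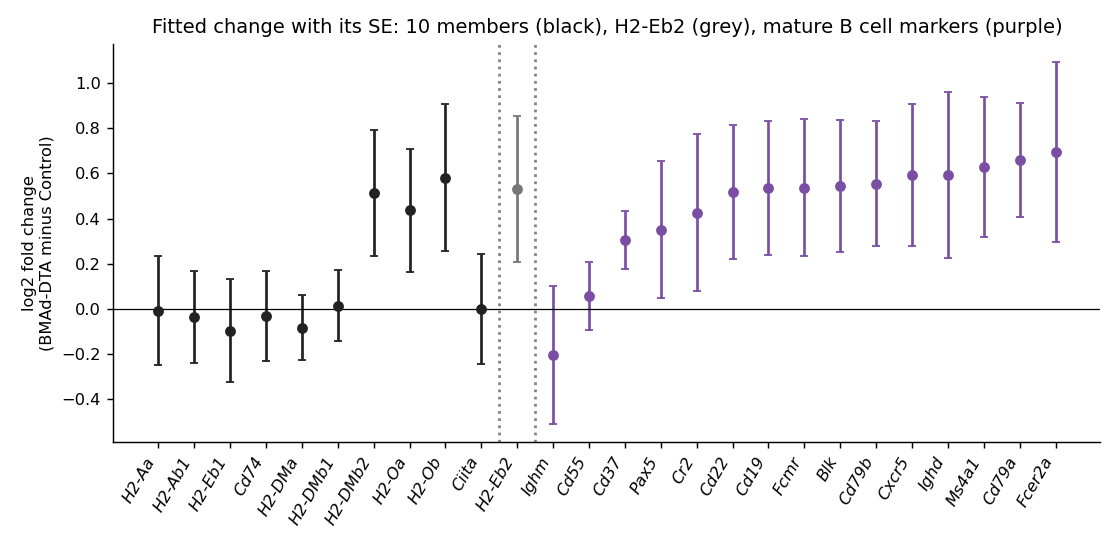
Fitted log2 fold change of BMAd-DTA over Control with its SE for the 10 class II genes (black), H2-Eb2 (grey) and 15 mature B cell markers (purple). H2-DMb2, H2-Oa and H2-Ob, at 0.44 to 0.58, lie in the range of most mature B cell markers, while the other 7 lie between -0.10 and 0.01.

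The 10 genes were set against the summed CPM of 5 marker lists over the 11 libraries, 50 relations in all, and none had an adjusted permutation p under 0.05 for r or rho. With the 15 mature B cell markers r was 0.217 to 0.540, with dendritic cell markers -0.014 to 0.188, with macrophage markers -0.277 to -0.0027, with T cell markers -0.540 to 0.504 and with skeletal muscle markers -0.512 to -0.281. None passed within the 7 BMAd-DTA libraries or without the 2 libraries farthest from the median either.

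Ighm made up much of the mature B cell sum, 3185 of 4020 CPM in Control 1, where the other 14 markers together were lower than in any other library, at 835 CPM. Those 14 summed to 1203, 1682 and 1669 CPM in Control 2 to 4 and to 1285, 3141, 1401, 1795, 1737, 1535 and 2333 CPM in BMAd-DTA 1 to 7. This sum without Ighm was a choice made after the values were seen and is given without a test. Against it, r was 0.947 for H2-Ob (rho 0.791), 0.940 for H2-DMb2 (rho 0.845) and 0.901 for H2-Oa (rho 0.718). It was 0.685 for Ciita, 0.538 for H2-Aa, 0.536 for Cd74, 0.513 for H2-Eb1, 0.493 for H2-Ab1, 0.491 for H2-DMb1 and 0.276 for H2-DMa. Without the 2 farthest libraries r was 0.890 for H2-DMb2 (rho 0.717), 0.814 for H2-Ob (rho 0.617) and 0.703 for H2-Oa (rho 0.483). Within the 7 BMAd-DTA libraries all 10 genes had r between 0.772 and 0.963, with BMAd-DTA 2, the library with the highest sum, included. The lower values over all 11 libraries came with the 4 controls added.

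**Figure D5:**
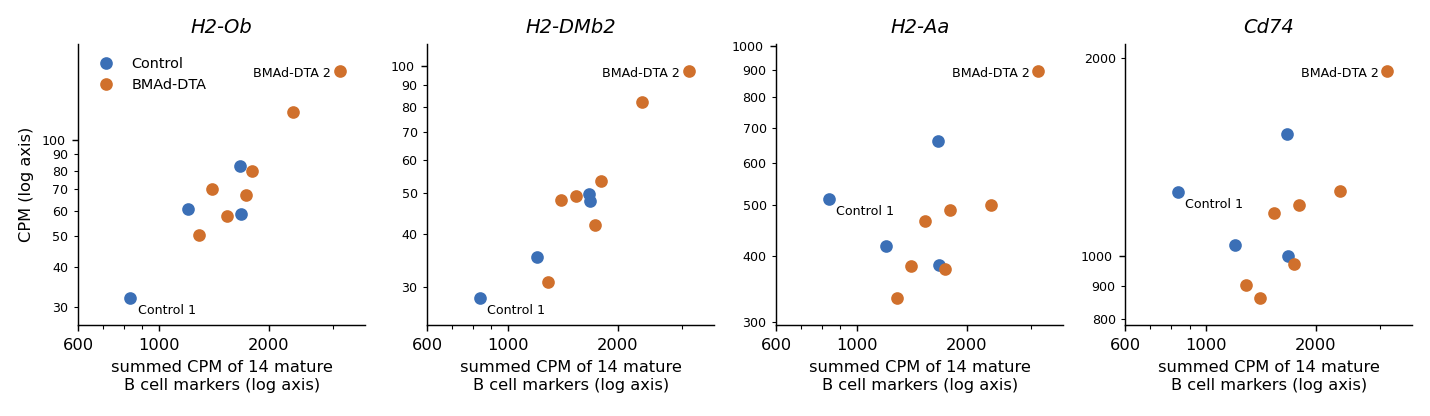
CPM of H2-Ob, H2-DMb2, H2-Aa and Cd74 against the summed CPM of 14 mature B cell markers (all but Ighm), both on log axes, 1 point per library. Control 1, at 835 CPM of the markers, is the lowest point for H2-Ob and H2-DMb2 but has 514.0 CPM of H2-Aa and 1249.5 CPM of Cd74.

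In ratio to Ms4a1 (CD20, a B cell surface protein), H2-Ob was 1.10 ± 0.189 (SD) in Control and 1.02 ± 0.0974 in BMAd-DTA libraries, and H2-DMb2 was 0.789 ± 0.186 and 0.681 ± 0.0909. The ratio of H2-Aa to Ms4a1 was 19.4 in Control 1 and between 4.43 and 8.81 in the other 10 libraries. With the mean log2 level of the mature B cell markers, Ighm included, as a covariate, the log2 fold change was -0.0020 for H2-Ob, 0.02 for H2-DMb2 and 0.0018 for H2-Oa. It was -0.36 for H2-Aa, -0.32 for Cd74 and -0.40 for Ciita. None of them was called, and 0 of 16496 genes were called in this fit. The covariate was measured in the same libraries and may itself differ with genotype. The fit therefore cannot tell B cell content and genotype apart.

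Other genes of the pathway were examined as a list of 46, of which 43 were tested. None passed an adjusted p of 0.05 in edgeR. At an unadjusted p under 0.05 there were 11 (5 higher and 6 lower), beside 7.89% higher and 8.53% lower over all genes, and DESeq2 called 1, Ctse. The factors that bind the X and Y boxes showed little difference, with 6 of 6 tested below 0, from Nfya at -0.10 (SE 0.056, adjusted p = 0.408 in edgeR) to Rfx5 at -0.04 (SE 0.0835). Rfxap, the remaining RFX subunit, was not in the merged table and had 193 to 249 counts in the per-library files.

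Among 12 tested regulators of Ciita, Prdm1, a repressor of Ciita in plasma cells, had the highest fitted log2 fold change, 0.35 (SE 0.19, adjusted p = 0.378). Ifng was too low to be tested. Of the 10 proteases and processing genes, Ctse (cathepsin E) had 666 ± 174 CPM in Control and 419 ± 83.5 CPM in BMAd-DTA libraries. Its log2 fold change of -0.67 (SE 0.165) had an adjusted p of 0.0848 in edgeR and 0.00366 in DESeq2. Ctsd (cathepsin D) was at the other end with 339.8 ± 24.9 and 409 ± 44.3 CPM (log2 fold change 0.27, SE 0.0861, adjusted p = 0.144 in edgeR), and Ctss, the protease that cuts the invariant chain in B cells and dendritic cells, had 0.07 (SE 0.11).

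Genes that act on class II at the surface showed the same lack of calls. March8, a ligase that marks membrane proteins for removal, had -0.38 (SE 0.13, adjusted p = 0.160 in edgeR), and Cd83, which opposes removal by its relative March1, had 0.21 (SE 0.145). The Cd74 ligands Mif and Ddt had -0.03 (SE 0.11) and 0.06 (SE 0.23). The class II receptor Cd4 ranged from 26.0 to 70.0 CPM over the controls and from 43.3 to 99.9 CPM over the BMAd-DTA libraries (log2 fold change 0.58, SE 0.245, adjusted p = 0.259 in edgeR), beside 0.06 (SE 0.18) for Lag3. Of 6 genes listed under co-stimulation, Cd274 (PD-L1), an inhibitory ligand, was lowest at -0.44 (SE 0.16, adjusted p = 0.179 in edgeR). Cd40 was highest at 0.23 (SE 0.265).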

How the data were processed

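Total RNA of whole distal tibiae was sequenced as stranded paired reads. The authors checked the reads with FastQC 0.11.9 and aligned them to mm10 with STAR. The counts deposited by the authors are whole numbers per gene without normalization, per library and merged, and the annotation release is not given in the sources used here. The merged counts equalled the same-strand column of the per-library counts. Mice were grouped by the genotype in the labels. Genes were filtered with filterByExpr, scaled by TMM and tested in edgeR 4.0.16 (quasi-likelihood, genotype as the only term, Benjamini-Hochberg over 16496 genes), with DESeq2 1.42.0 and limma 3.58.1 (voom) as alternatives. The authors' own test was DESeq2 with genotype as main effect. CPM were computed with TMM-scaled library sizes, and log2 CPM with a prior count of 2. Correlations used 100000 permutations, two-sided. Fits were tested on simulated data. Positions are from GENCODE M21 on GRCm38, which matched 99.9% of identifiers, and promoters from RefSeq. No window was given for H2-Ab1, Cd74 and Ciita.

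The 10 genes, the pathway and marker lists and the tests were chosen with earlier results of these data known. All 10 genes are named, and of each pathway group the genes past the threshold and those at either end of its log2 fold changes. A gene that this rule would name is not reported here. Ctss was added after its value was seen. Class II chains are polymorphic, the labels give no MHC haplotype for the mixed strain, and reads of other alleles may align less well to the reference strain. The depth of 16969529 to 18637663 counts per library limits precision for low genes more than for these 10, whose mean counts per library were at least 400.9.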

Additional observations from a re-analysis of the deposited data

Results flagged for a closer look

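BMAd-DTA 2 stood apart from the other 6 BMAd-DTA libraries for 5 of the 10 genes, with a gap to the next library that exceeded the Dixon limit of 0.568 of the group's range for 7 libraries. It had 897.1 CPM of H2-Aa (gap 0.705 of the range), 623.0 CPM of H2-Ab1 (0.664), 400.6 CPM of H2-Eb1 (0.704), 1908.8 CPM of Cd74 (0.624) and 74.0 CPM of H2-DMb1 (0.653). The same library had the most of the 14 mature B cell markers other than Ighm, 3141 CPM, and its muscle markers summed to 18.3 CPM, among the lowest. Their part in these values was not tested. Of the 34 groups looked at, 20 were of the 10 genes, and chance gives such a flag in about 1 of 20 groups, while these 5 genes move together and are not independent.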

How the results depend on the processing

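None of the 10 genes was called under any of 26 alternatives, and the lowest adjusted p was 0.251, for H2-DMb2 without BMAd-DTA 1. The sign of the fitted change was kept in 225 of 260 values. It turned for Ciita with DESeq2 (-0.00028), limma-voom (-0.028), no scaling (-0.014), muscle score (-0.068) and mature B cell score (-0.40), for H2-DMb1 with no scaling (-0.00068), muscle score (-0.047) and mature B cell score (-0.16), for H2-Aa with upper quartile scaling (0.0079) and for H2-Ob with the mature B cell score (-0.0020). The cause was not tested. Leaving out 1 library gave -0.22 (without BMAd-DTA 2) to 0.16 (without Control 4) for H2-Aa, -0.21 to 0.10 for H2-Ab1, -0.30 to 0.069 for H2-Eb1, -0.19 to 0.11 for Cd74, -0.17 to 0.014 for H2-DMa, -0.092 to 0.16 for H2-DMb1 and -0.16 to 0.23 for Ciita, with the same 2 libraries at the ends. The median over the 10 ran from -0.17 to 0.16, and was -0.26 with the mature B cell score.

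Over all genes the 13 calls became 845 with DESeq2, 20 with limma-voom, 32 with the robust fit, 20 with RLE scaling, 3 with the muscle score, 0 with the mature B cell score and 450 with the likelihood ratio test, which was added after the data were seen, and 0 to 292 with 1 library left out. Among the pathway genes 0 calls became 1 with DESeq2 and 1 with the likelihood ratio test, and 0 to 2 with 1 library left out (2 without Control 3). The 2 groups were different mice and the labels used here do not link a control to a BMAd-DTA mouse, so no paired analysis was made. The labels carry no replicate numbers either. Those used here, such as Control 1, follow the order of the samples in the series within each group. With 4 against 7 mice, the intervals of 2 SE spanned -0.04 to 1.07 for H2-DMb2 and -0.07 to 1.23 for H2-Ob on the log2 scale.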

Other observations

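The genes that varied most with each of the 2 sets of class II genes were listed after the sets had been drawn from the values. Of the 10 genes most like the mean of H2-DMb2, H2-Oa and H2-Ob over the 11 libraries, 6 were among the 15 mature B cell markers, namely Ighd (r = 0.975), Cd22 (0.964), Fcer2a (0.964), Fcmr (0.960), Cxcr5 (0.955) and Cr2 (0.950). The other 4 were Ccm2 (0.961), Arhgap27os3 (0.958), F730311O21Rik (0.950) and Zscan26 (0.950). Of the 10 genes most like the mean of H2-Aa, H2-Ab1, H2-Eb1 and Cd74, 0 were mature B cell markers. They were led by Qtrt2 (0.911), Tlr1, a receptor for bacterial lipopeptides (0.897), and H2-M3, a class I molecule that presents formylated peptides (0.890). These are descriptions over 11 libraries, with no test. Within the 7 BMAd-DTA libraries r between the 2 sets was 0.699 to 0.912. There H2-Aa, H2-Ab1, H2-Eb1 and Cd74 had r of 0.902 to 0.941 with the 14 mature B cell markers other than Ighm. BMAd-DTA 2 was highest for all 10 class II genes and for this marker sum, and r without it was not computed.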
